A study of Rattus norvegicus with 18 samples.

Results

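Whole brains of the stroke-prone spontaneously hypertensive rat (SHRSP) were compared with those of the Wistar-Kyoto rat (WKY) at 3 weeks of age. The comparison takes the arrays whose titles name these strains at that age, which are 6 of the 18 arrays of the series, 3 per group and each titled as a biological replicate. Per the labels the animals received no treatment, and the study's question is how brain gene expression differs between hypertensive and normotensive strains. Arrays of the spontaneously hypertensive rat (SHR) at 3 and 6 weeks, and of WKY and SHRSP at 6 weeks, entered the same fit. They add to its estimate of the spread and are otherwise used here only to place the comparison. The labels do not state the animals' sex. Each strain is 1 inbred line, so a strain difference cannot be told apart from any other inherited difference between these lines.

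SHRSP was bred from SHR by selecting for stroke, and WKY is the usual normotensive control of both strains. Blood pressure in the hypertensive strains climbs after weaning, so brains of this age come from before established hypertension. Pressure is set in part in the brain, where angiotensin, natriuretic peptides, nitric oxide, catecholamines and lipid mediators act on vessels and on the neurons that drive sympathetic outflow. The inbred strains also differ in DNA sequence, and a sequence difference in a gene can change its transcript whether or not it bears on pressure.

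RNA was hybridised to 60-base probes with a single dye (Cy3), and each spot gave an intensity. Differences are given on the log2 scale as SHRSP minus WKY with the standard error (SE) of the fit (n = 3 arrays per group), so 1 is a 2-fold difference. Single arrays are given as scaled intensities, which are the log2 values after scaling turned back to the linear scale, and these compare arrays for 1 probe and not probes with each other. A gene was called where its limma p, adjusted by Benjamini-Hochberg over all 21183 genes tested, was under 0.05. The 6 arrays had median intensities of 380 to 436, 82.5% to 85.2% of their spots well above background and no saturated spot. The number of arrays limits the precision. The SE and p-values rest on the spread within groups, pooled for each gene over all 18 arrays of the series.

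Slide and label bear on every value. Per the file headers, no slide held arrays of both groups. The WKY arrays shared slide 1 with SHR replicate 1 of 3 weeks, SHRSP replicates 1 and 2 shared slide 2 with SHR replicates 2 and 3, and SHRSP replicate 3 lay on slide 3 with the WKY arrays of 6 weeks. A fit with slide as a fixed block therefore links the groups only through SHR replicate 1, and SHRSP replicate 3 adds nothing to it. A set of genes that set the arrays labelled SHRSP apart at 3 weeks did so in the arrays labelled SHR, not SHRSP, at 6 weeks, so the labels of these strains conflict between the ages. Whether they are right at both ages was not tested. Groups are called by their labels below, and each 6-week difference and each interaction of strain and age is that of the label.

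Between the arrays labelled SHRSP and WKY at 3 weeks, 8662 genes were called (40.9%), 3795 higher (17.9%) and 4867 lower (23.0%). The more frequent direction changed with the scaling, with 4460 higher and 4171 lower after quantile scaling, 4587 and 4358 after median scaling and 4542 and 4409 after normexp background correction. The arrays of the groups did not overlap for 11611 genes (54.8%). This held for 8430 of the 8662 called genes, so a lack of overlap adds little to a call of a gene below. With slide as a fixed block 1154 genes were called (5.45%), and 952 of the 8662 were among them in the same direction. The median size of a called difference was 0.33. Among genes with an established symbol, 271 were called at 2-fold or more, 74 higher and 197 lower. Of these, 114 were also called with the slide block, 52 higher and 62 lower. The block kept more of the higher genes than of the lower ones, as the plot of both fits shows for the single genes.

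**Figure D1:**
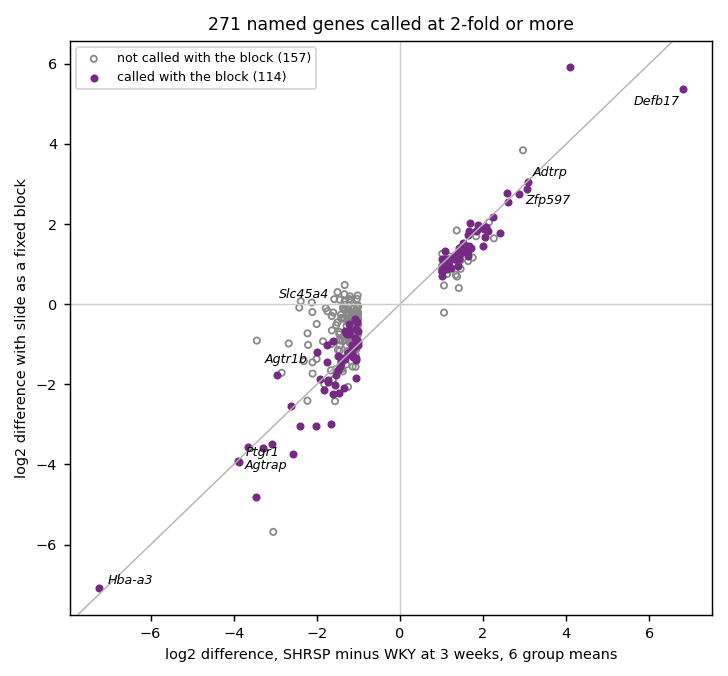
Each point is 1 of the 271 named genes called at 2-fold or more, with its log2 difference from 6 group means on the horizontal axis and with slide as a fixed block on the vertical axis; filled points are the 114 also called with the block and the diagonal marks equal values. Agtrap, Ptgr1, Adtrp, Zfp597, Hba-a3 and Defb17 stay far from 0 in both fits, while Slc45a4 moves to near 0 with the block.

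Agtrap, Ptgr1, Adtrp and Zfp597 were among the 5 genes with the lowest adjusted p. The middle bases of the probes behind them, from base 16 to 45 of 60, are shown because each of these genes was read by a single probe. All letters are in lower case since no part is singled out, and the coordinates of the whole probe are those of the rn4 build in the array's own files.
Agtrap, minus strand, chr5:165154364-165154423: caagatgttttctcgtgtttctggaagggt
Ptgr1, minus strand, chr5:77010948-77011007: gagaagatgcccgcagcgttcatgggaatg
Adtrp, plus strand, chr17:28879511-28879570: catgggagattttgtttctggctaaaataa
Zfp597, plus strand, chr10:11926184-11926243: tgcaaaacatgtgcaaagacctttgcttta
Where a probe lies within its transcript was not analysed here. The deposited files hold no sequence of these strains, so a strain difference under a probe was not tested.

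Agtrap, whose protein binds the angiotensin II type 1 receptor and draws it into the cell, shared the lowest adjusted p of the comparison with Ptgr1. Its scaled intensity was 1644, 1534 and 1543 on the WKY arrays and 112, 102 and 104.9 on those labelled SHRSP. The groups lay far apart with a narrow spread in each. The difference was -3.89 ± 0.05 (limma adjusted p = 4.69e-15), and -3.92 with the slide block. The arrays labelled SHR read 1745, 1772 and 1799, close to WKY. At 6 weeks the SHRSP label differed from WKY by 0.04 ± 0.05 (adjusted p = 0.64), and the arrays labelled SHR differed by -4.52. The low value thus stood under the label SHRSP at 3 weeks and under the label SHR at 6 weeks.

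The other genes of the renin-angiotensin and adrenal steroid list differed less. None of them was called with the slide block, which called 5.45% of all genes. Of 22 measured members 3 were called higher and 7 lower, a total of 45.5% against 40.9% of all genes, with a median of -0.09 against -0.01. Agtr1b, one of the rodent type 1 angiotensin receptor genes, read 493, 513 and 388 in WKY and 57.5, 42.0 and 109 in SHRSP. The groups did not overlap, and the difference was -2.85 ± 0.43 (adjusted p = 0.000217). With the block it was -1.71 (adjusted p = 0.0895), and the SHR arrays read 226 on slide 1 and 95.3 and 65.2 on slide 2. Agtr1a, the other type 1 receptor gene, differed by -0.25 ± 0.07. Agt, the precursor of all angiotensins, was higher by 0.30 ± 0.06 and Cyp11b1, the last enzyme of corticosterone synthesis, by 0.48 ± 0.07.

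Of 6 measured natriuretic peptide genes, the ligand genes Nppa and Ostn were called lower and the receptor genes Npr1 and Npr2 higher (66.7% called, all genes 40.9%). Nppa encodes atrial natriuretic peptide, which relaxes vessels and promotes sodium loss. It read 211, 211 and 215 in WKY and 97.4, 99.5 and 109 in SHRSP, with no overlap. The difference was -1.06 ± 0.08 (adjusted p = 3.32e-07), -1.40 with the block, 0.18 ± 0.08 at 6 weeks under the SHRSP label and -1.28 there under the SHR label. Ostn encodes osteocrin, a peptide that binds the natriuretic clearance receptor. It was not well above background on any SHRSP array and at least 5.44-fold lower than in WKY, where it read 115, 55.9 and 29.0 (adjusted p = 0.000593). Such a bound divides the brighter group's mean by a floor, the weakest signal among probes detected above background on each array of the dimmer group. Npr1, the receptor of atrial natriuretic peptide, was higher by 0.32 ± 0.07 and by 0.54 with the block, both called, and Npr2, the receptor of C-type natriuretic peptide, by 0.20 ± 0.05, which the block did not call (adjusted p = 0.0799).

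Genes of nitric oxide and endothelin signalling were called about as often as all genes, at 43.5% against 40.9%. Of 23 measured, 5 were called higher and 5 lower, or 8 and 4 with median scaling, and 5 of the 10 were also called with the block. Prkg2, a kinase driven by cyclic GMP, read 76.0, 77.1 and 79.0 in WKY and 50.2, 47.9 and 47.5 in SHRSP. The groups were apart, and the difference was -0.67 ± 0.06 (adjusted p = 1.41e-06). Ednra, the endothelin receptor of vascular muscle, differed by -0.47 ± 0.06 and Arg1, which competes with nitric oxide synthases for arginine, by -0.36 ± 0.04. Ece1, which cleaves endothelin from its precursor, was higher by 0.32 ± 0.05 and Asl, which regenerates arginine, by 0.34 ± 0.04. None of these 5 reached 2-fold, and second probes of Ednra and Ece1 were not called.

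The eicosanoid and epoxide list held some of the largest differences of the comparison. Of 43 measured members 13 were called higher and 12 lower (58.1% called, all genes 40.9%). With the block 8 were also called, 3 higher and 5 lower. Ptgr1 converts prostaglandins and leukotriene B4 to less active products. It read 5251, 5551 and 5375 in WKY and 386, 378 and 346 in SHRSP, a difference of -3.87 ± 0.06 (adjusted p = 4.69e-15). The SHR arrays read 340, 363 and 382, and at 6 weeks the differences from WKY were -3.88 ± 0.06 and -4.20 under the SHRSP and SHR labels. Ptgr1 was thus low in every array labelled SHR or SHRSP at either age. Hpgd, which inactivates prostaglandins by oxidation, was also low in both labels, with -0.96 ± 0.06 at 3 weeks and -0.95 ± 0.06 at 6 weeks in the arrays labelled SHRSP.

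Ephx2, the soluble epoxide hydrolase, removes epoxides of arachidonic acid that dilate vessels. It read 162, 167 and 192 in WKY and 18.7, 12.6 and 11.2 in SHRSP, where 2 of 3 arrays were above background. The difference was -3.65 ± 0.19 (adjusted p = 6.09e-09), and at 6 weeks -0.11 ± 0.19 under the SHRSP label and -3.76 under the SHR label. Cyp2c11, a P450 that can form such epoxides, differed by -3.07 ± 0.13 and by -3.48 with the block. An enzyme that can form these epoxides and the one that clears them thus both had lower values. Of the omega-hydroxylases of the Cyp4f group, Cyp4f1 was higher by 0.52 ± 0.06 and Cyp4f5 by 0.56 ± 0.04, both also with the block. The Cyp4f genes resemble each other, and a probe may take signal from more than 1 of them. Ptger4, a prostaglandin E receptor, was not well above background on any SHRSP array and at least 1.61-fold lower there (adjusted p = 0.00204, and adjusted p = 0.0466 with the block).

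Of 27 measured catecholamine and serotonin genes 5 were called higher and 10 lower, against 17.9% and 23.0% of all genes, but 7 and 7 with normexp. The median was -0.07, and 0.002 with slide as a random block. Cyb561, an electron carrier of the storage vesicle, was the only member also called with the fixed block (0.25 ± 0.05 and 0.39). Th, tyrosine hydroxylase, read 6492, 6240 and 6149 in WKY and 4686, 4756 and 4733 in SHRSP, a difference of -0.41 ± 0.09 (adjusted p = 0.00285). With the block the difference was 0.05. The SHR arrays read 6457 on slide 1 and 4789 and 4542 on slide 2, so they matched their slide neighbours and not each other. Chga, the chromogranin A gene of the vesicle core, had the same arrangement, with -0.59 ± 0.11 without the block and -0.01 with it.

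Of 34 sodium and chloride transport genes 8 were called higher and 4 lower (35.3% called, all genes 40.9%). Fxyd7, a brain subunit of the sodium pump, was the only one also called with the block (0.32 ± 0.04 and 0.29). Sgk1 is a kinase that corticosteroids induce and that raises sodium channel activity. It read 1073, 1067 and 1164 in WKY and 3090, 2362 and 3762 in SHRSP, and every SHRSP array lay above every WKY array. The difference was 1.46 ± 0.18 (adjusted p = 4.03e-05) and 1.09 with the block (adjusted p = 0.0632). The SHR arrays of 3 weeks read 4039, 4715 and 4573.

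Among 17 measured candidate genes of hypertension and stroke, 2 were called higher and 7 lower (52.9% called, all genes 40.9%). With the block 4 of the lower ones were also called. These were Agtrap, Ephx2, Nppa and Endog, a mitochondrial nuclease. Endog read 2269, 2307 and 2411 in WKY and 1649, 1693 and 1681 in SHRSP, a difference of -0.48 ± 0.04. It differed by -0.62 ± 0.04 at 6 weeks under the SHRSP label and by -0.86 under the SHR label. Stim1, the calcium sensor of the endoplasmic reticulum, differed by -0.50 ± 0.06 (adjusted p = 5.45e-05), but by -0.24 with the block (adjusted p = 0.113).

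**Figure D2:**
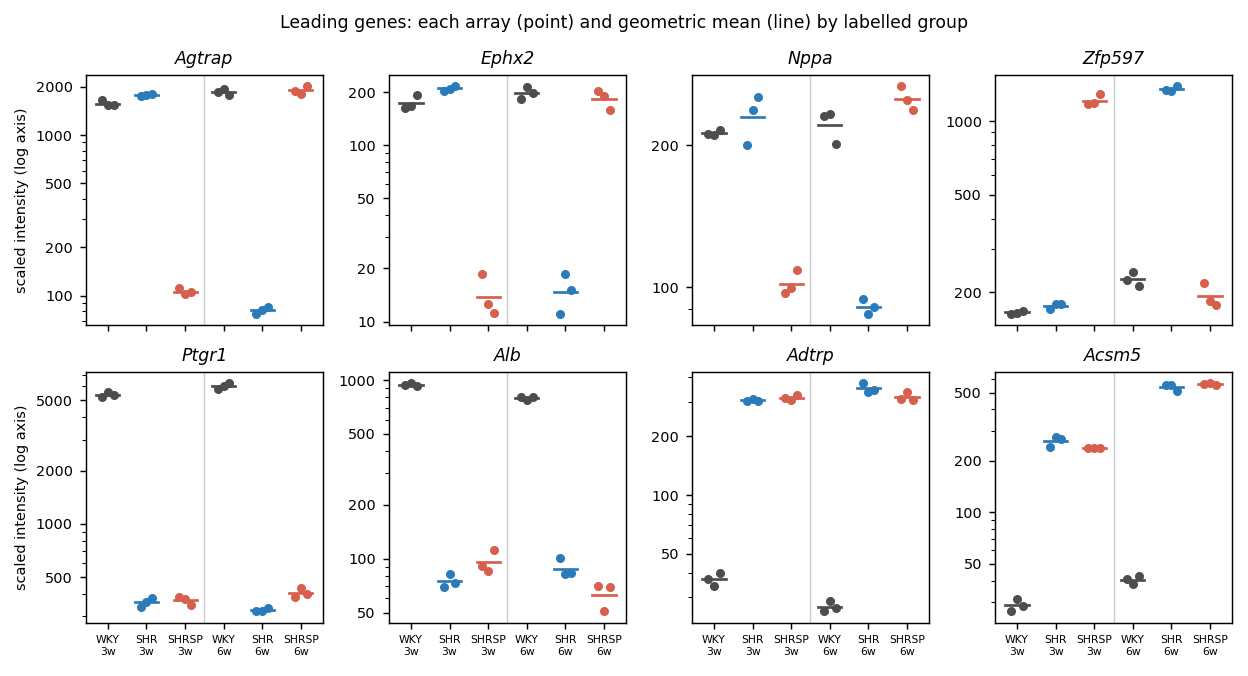
Scaled intensity on a log axis for 8 genes in the 6 labelled groups, with points for single arrays and lines for the geometric mean of 3. In the upper row the values of the SHRSP label at 3 weeks recur under the SHR label at 6 weeks; in the lower row the SHR and SHRSP labels differ from WKY the same way at both ages.

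Most members of a list built around genes that corticosterone induces through the glucocorticoid receptor were higher in the arrays labelled SHRSP. The list was written with earlier results of these data known, so its counts are not independent support. Sgk1, named above, is not a member. All 15 measured members of the list are named here, although the naming rule takes only some of them. Of the 15, 12 were called higher and 3 lower, against 17.9% and 23.0% of all genes, and the median difference was 0.59 against -0.01. With the block 6 of the 12 and 1 of the 3 were called, and the median was 0.37. Quantile scaling and normexp background correction kept 12 higher and 2 lower.

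Zbtb16, a transcription factor and sensitive target of the receptor, read 96.4, 106 and 128 in WKY and 291, 326 and 365 in SHRSP, with 110, 119 and 134 in SHR. The difference was 1.58 ± 0.15 (adjusted p = 4.81e-06) and 1.30 with the block. Fkbp5, the chaperone that damps the receptor, read 2268, 2135 and 2107 in WKY and 3370, 3804 and 5067 in SHRSP. The SHR arrays, at 2365 to 2434, lay below all SHRSP arrays. Its difference was 0.89 ± 0.12 and 0.69 with the block. Map3k6, a stress kinase, was higher by 1.14 ± 0.14, and the metallothionein genes Mt1 and Mt2A, which bind zinc, by 0.68 ± 0.06 and 0.74 ± 0.07. Klf9, a factor of neuronal maturation, was higher by 0.59 ± 0.06. These 6 genes were called with the block and also differed from the arrays labelled SHR at 3 weeks, by 1.44 for Zbtb16, 0.74 for Fkbp5, 0.66 for Map3k6, 0.38 for Mt1, 0.55 for Mt2A and 0.22 for Klf9, with adjusted p of at most 0.0358.

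The remaining members of the list were less distinct. Arrdc2, Ddit4, Nfkbia, Errfi1 and Tsc22d3 were higher by 0.72, 0.42, 0.41, 0.38 and 0.31, and neither they nor Pdk4 were called with the block. A second probe of Ddit4 was not called (0.33). For Nfkbia and Errfi1 the SHR arrays lay above the SHRSP arrays, with differences between SHRSP and SHR of -0.53 and -0.35. Pdk4 was not well above background on any WKY array and at least 1.81-fold higher in SHRSP. Nr3c1, the glucocorticoid receptor itself, differed by -0.52 ± 0.06 and by -0.26 with the block. Its second probe differed by only -0.07 and was not called. Cdkn1a and Hif3a differed by -0.47 and -0.25 and were not called with the block, and a second probe of Cdkn1a was called the other way, at 0.85. At 6 weeks the SHRSP label differed from WKY by 0.26 ± 0.15 for Zbtb16 (adjusted p = 0.23), 0.20 ± 0.14 for Map3k6 (adjusted p = 0.29) and 0.43 ± 0.12 for Fkbp5 (adjusted p = 0.012). Mt2A then differed from WKY by -0.26 ± 0.07.

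**Figure D3:**
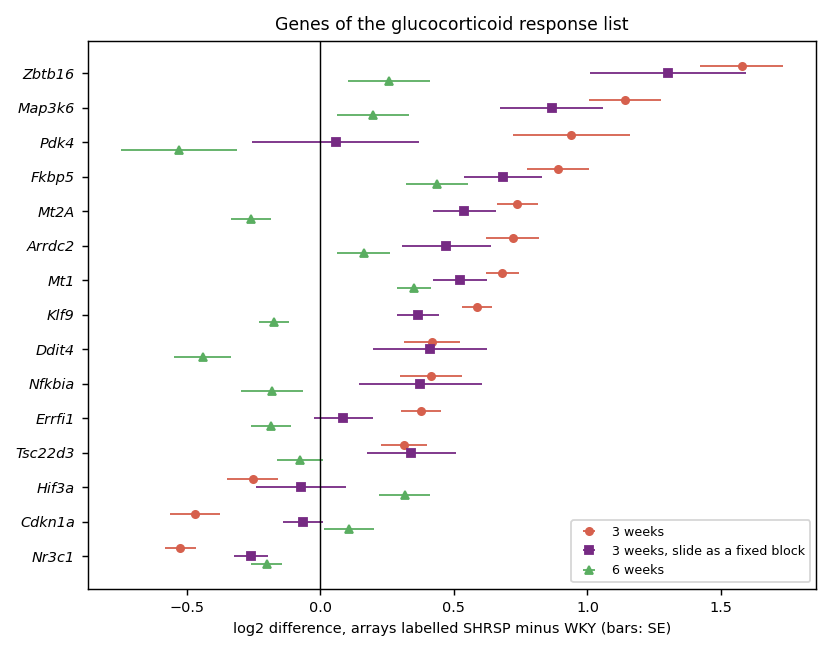
Log2 difference of the arrays labelled SHRSP from WKY for the 15 glucocorticoid response genes, with bars for the SE; circles are 3 weeks, squares 3 weeks with slide as a fixed block and triangles 6 weeks. Zbtb16 and Map3k6 lie highest at 3 weeks without the block, where Fkbp5 lies below Pdk4. All of Zbtb16, Map3k6 and Fkbp5 lie nearer to 0 at 6 weeks, while the values of Pdk4 rest on 1 group below background at each age.

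Clock genes, some of which glucocorticoids also induce, were called higher in 9 of 19 and lower in 4, against 17.9% and 23.0% of all genes, and 2 of the higher ones were also called with the block. The median was 0.17, and 0.04 with the block. Per2, a repressor in the clock loop, read 213, 227 and 231 in WKY and 425, 447 and 416 in SHRSP. The groups were apart, and the difference was 0.94 ± 0.09 (adjusted p = 2.73e-06), 0.87 with the block and 0.64 ± 0.09 at 6 weeks. Dbp, an output factor of the clock, was higher by 0.61 ± 0.10 but was not called with the block (adjusted p = 0.114), and Tef, its relative, was higher by 0.38 ± 0.05 in a call that the block kept. The labels do not state the time of day of collection.

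Of 28 measured immediate early genes, which neurons switch on with activity, 2 were called higher and 11 lower, against 17.9% and 23.0% of all genes, with a median of -0.21. Nr4a1, a nuclear receptor, read 5793, 6584 and 6233 in WKY and 3251, 2914 and 3035 in SHRSP, a difference of -1.02 ± 0.09 that held with the block at -0.67 (adjusted p = 0.0152). Fos differed by -0.81 ± 0.09 and by -0.53 with the block (adjusted p = 0.0855). At 6 weeks these differences were wider, at -2.18 ± 0.09 for Nr4a1 and -2.55 ± 0.09 for Fos. Dusp5, a phosphatase of the same response, was higher by 0.69 ± 0.10 and was called with the block.

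Markers of brain vessels moved in both directions. Of 27 endothelial genes 5 were called higher and 9 lower (51.9% called, all genes 40.9%). With the block 4 of the higher and 1 of the lower were also called. Slc2a1, the glucose transporter of the blood-brain barrier, read 8644, 8581 and 9016 in WKY and 15120, 15190 and 15900 in SHRSP. No arrays overlapped, and the difference was 0.82 ± 0.06 (adjusted p = 2.98e-07), 0.61 with the block and 0.25 ± 0.06 at 6 weeks. Pecam1, an endothelial adhesion molecule, was higher by 0.67 ± 0.07, Abcg2, a drug efflux pump, by 0.58 ± 0.06, and Mfsd2a, which imports lipids across the barrier, by 0.52 ± 0.05. Each of these 4 was also higher than in the arrays labelled SHR at 3 weeks, by 0.28, 0.46, 0.44 and 0.48. Egfl7, a secreted endothelial factor, differed by -0.46 ± 0.04. Ocln, the tight junction protein occludin, differed by -1.09 ± 0.13 and by -0.76 with the block (adjusted p = 0.0675). In bulk RNA, a change in the number of cells of a type and a change in RNA per cell cannot be told apart.

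Of 18 genes of the vascular endothelial growth factor and angiopoietin list, 3 were called higher and 4 lower (38.9% called, all genes 40.9%). Kdr, the main receptor of this family, differed by -0.57 ± 0.09 but was not called with the block (adjusted p = 0.165). Vegfc, a ligand for lymphatic and venous vessels, differed by -0.43 ± 0.16 and was called with the block at -1.17, where the SHR array of slide 1 read 435 and the other SHR arrays 772 and 735. Among 15 mural cell genes 2 were called higher and 4 lower (40.0% called, all genes 40.9%). None was also called with the block, against 952 of all 21183 genes. The basement membrane collagens Col4a1 and Col4a2 were higher by 0.40 ± 0.10 and 0.68 ± 0.08, both also with the block, though a second Col4a1 probe was not called (-0.23).

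The coagulation list held a large rise. Of 15 measured 4 were called higher and 2 lower (40.0% called, all genes 40.9%). Adtrp, which raises the inhibitor of the tissue factor pathway, read 37.1, 34.5 and 39.8 in WKY and 313, 307 and 324 in SHRSP, a difference of 3.09 ± 0.06 (adjusted p = 2.61e-13). The SHR arrays read 303, 310 and 301, and the 6-week differences were 3.55 ± 0.06 and 3.70. F3, which encodes tissue factor itself, read 3643, 3795 and 3812 in WKY and 2464, 2352 and 2401 in SHRSP. The difference was -0.64 ± 0.05, -0.55 with the block, and -0.48 ± 0.05 at 6 weeks under the SHRSP label. The SHR arrays, at 2327 to 2484, lay with SHRSP and not with WKY.

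Of 21 measured interferon response genes 0 were called higher and 10 lower, against 17.9% and 23.0% of all genes. The median was -0.36, and 3 of the 10 were also called with the block. These were Ifi44, the guanylate-binding protein gene Gbp5 and Eif2ak2, a kinase activated by double-stranded RNA. They differed by -0.55 ± 0.11, -0.54 ± 0.09 and -0.36 ± 0.10, and a second probe of Eif2ak2 was not called (-0.17). At an unadjusted p under 0.05 in limma 0 were higher and 11 lower. With median scaling 6 members were called lower, with quantile scaling 7, and with normexp 8 lower and 1 higher. Cxcl10, a chemokine induced by interferon, read 60.6, 39.1 and 32.7 in WKY and 15.9, 18.4 and 8.53 in SHRSP, where 2 of 3 arrays were above background. It differed by -1.65 ± 0.29 (adjusted p = 0.000593) but was not called with the block (adjusted p = 0.234).

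Of 34 chemokine and receptor genes 4 were called higher and 11 lower (44.1% called, all genes 40.9%). Ccl9 read 181, 203 and 178 in WKY and 61.9, 54.4 and 69.7 in SHRSP, a difference of -1.60 ± 0.16, and Ccl5 differed by -0.66 ± 0.07. Ccl19, which guides lymphocytes and dendritic cells, was higher by 0.50 ± 0.05. All 3 were called with the block. Among 15 complement genes 4 were called higher and 4 lower (53.3% called, all genes 40.9%). C3, the central component, read 328, 318 and 299 in WKY and 653, 641 and 1544 in SHRSP, and SHRSP replicate 3, on slide 3, was by far the highest. Its difference was 1.46 ± 0.25 and 0.88 with the block (adjusted p = 0.0506).

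The cell types of whole brain were present in all 6 arrays. All 9 microglial, 6 astrocyte, 6 oligodendrocyte, 6 neuronal, 4 endothelial, 4 mural, 5 meningeal and 5 choroid plexus markers were well above background on each array. Microglial genes were called higher in 8 of 20 and lower in 0, against 17.9% and 23.0% of all genes. At an unadjusted limma p under 0.05 these were 9 and 1, and the median was 0.16. Their 9 markers summed to scaled intensities of 36030 to 36920 in WKY and 42980 to 46440 in SHRSP, and to higher values in every SHRSP array. The sums of the 4 endothelial markers were 12990 to 13580 in WKY and 20080 to 21100 in SHRSP. Those of the 6 neuronal markers were 87160 to 94150 and 99910 to 101400, apart in the same direction. Bright probes weigh most in such sums, and Slc2a1 makes up most of the endothelial one. Single markers were called both ways, with 2 higher and 1 lower among the endothelial and likewise among the neuronal ones. Of the microglial markers 5 were called higher and 0 lower. The part of these cell types in other differences was not tested. Tmem119, a microglial membrane protein, was higher by 0.71 ± 0.14 (adjusted p = 0.00135) and Trem2, a receptor of microglial phagocytosis, by 0.55 ± 0.08. With the block none of the 20 was also called, against 952 of all 21183 genes, and the median was 0.02. Of 20 astrocyte genes 10 were called higher and 2 lower, and Aldh1l1, a folate enzyme of astrocytes, was the only one also called with the block (0.32 ± 0.05 and 0.36).

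Each list for the linings and choroid plexus of the brain, for tissue next to it and for blood was called less often than all genes (40.9%). Ependyma and motile cilia had the highest share, at 28.6%, and choroid plexus the lowest. The pineal and photoreceptor list had 27.3% and the blood and globin list 21.4%. The meningeal and pituitary lists lay between these values. Of 16 choroid plexus genes 0 were called with limma, and 1 had an unadjusted p under 0.05. With median scaling 1 was called higher, and with normexp 2. The 5 choroid plexus markers summed to 294700 to 339700 in WKY and 309700 to 358400 in SHRSP. Of 5 pituitary markers 4 were measured, and 1 was well above background on all 6 arrays. Cga, the common subunit of pituitary glycoprotein hormones, read 19.6, 20.5 and 6.76 in WKY and 147, 152 and 57.5 in SHRSP, where WKY was above background on 2 of 3 arrays (log2 difference 2.96, adjusted p = 0.0453, and adjusted p = 0.344 with the block). Tph1, which starts melatonin synthesis in the pineal gland, read 51.9, 2448 and 45.4 in SHRSP and 41.7 to 46.6 in WKY, so only SHRSP replicate 2 was high. The alpha globin gene Hba-a1 read 237100 to 302200 over the 6 arrays (0.13 ± 0.09, adjusted p = 0.254), but its second probe was called higher, at 0.47. The part of these tissues in any other difference was not tested.

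Neuronal genes showed few differences as a group but several large single ones. Of 21 neuronal markers 5 were called higher and 1 lower (28.6% called, all genes 40.9%). Map2, a protein of dendritic microtubules, was higher by 0.83 ± 0.07, by 0.76 with the block and by 0.77 ± 0.07 at 6 weeks. Of 24 glutamate receptor genes 5 were called higher and 1 lower, and of 16 GABA receptor genes 1 and 2, none of them with the block. Potassium channel genes were called higher in 13 and lower in 19 of 84, close to the share of all genes (38.1% called, all genes 40.9%). Kcnj9, a channel subunit opened by G proteins, read 1550, 1508 and 1432 in WKY and 772, 792 and 802 in SHRSP (-0.92 ± 0.07, adjusted p = 2.44e-07), and it differed by -1.02 ± 0.07 at 6 weeks, but its second probe was not called (0.005). Kcne5, a modulator of other channels, read 126, 139 and 130 in WKY and 310, 281 and 287 in SHRSP (1.15 ± 0.06), with 0.02 ± 0.06 at 6 weeks under the SHRSP label and 0.99 under the SHR label.

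Of 27 neuropeptide genes 4 were called higher and 10 lower, against 17.9% and 23.0% of all genes. Cort, which encodes the somatostatin relative cortistatin of inhibitory neurons, read 5897, 6175 and 6679 in WKY and 2341, 2387 and 2285 in SHRSP. The difference was -1.42 ± 0.05 (adjusted p = 1.86e-10), with intermediate SHR arrays at 4671 to 4867. Sst, the somatostatin gene, differed by -0.89 ± 0.07 and by -0.70 ± 0.07 at 6 weeks. Cartpt, which encodes an appetite-suppressing peptide, differed by -0.48 ± 0.08. These 3 genes were the ones also called with the block, at -1.43, -0.67 and -0.52.

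Lipid and acyl-CoA enzymes differed in opposite directions within 1 family. Of 62 measured fatty acid and acyl-CoA genes 22 were called higher and 8 lower (48.4% called, all genes 40.9%). With the block 5 and 4 of these were also called. Acsm5, a mitochondrial synthetase of medium-chain acyl-CoA, read 26.5, 31.4 and 28.6 in WKY and 239, 240 and 239 in SHRSP, a difference of 3.06 ± 0.06 (adjusted p = 3.58e-13). It was similar in SHR, at 240 to 274, and differed by 3.80 ± 0.06 at 6 weeks. Acox2, which oxidises branched-chain acyl groups in peroxisomes, was not well above background on any WKY array and at least 4.84-fold higher in SHRSP. The acyl-CoA thioesterases Acot5 and Acot4 differed by -1.57 ± 0.12 and -0.69 ± 0.04, while Acot3 and Acot1 differed by 0.85 ± 0.05 and 0.37 ± 0.04. All 4 lie on chromosome 6 and resemble each other, so probes may take signal from more than 1 of them.

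Of 24 cholesterol synthesis genes 1 was called higher and 6 lower (29.2% called, all genes 40.9%). Among those also called with the block were Hsd17b7 and Sqle. They differed by -0.58 ± 0.04 and -0.41 ± 0.04. The median of the list was -0.04. Of 87 respiratory chain genes 21 were called higher and 16 lower (42.5% called, all genes 40.9%). With normexp these were 14 and 20, so the more frequent direction changed with the scaling. Ribosomal protein genes were called higher in 17 and lower in 3 of 74 (27.0% called, all genes 40.9%). With quantile scaling these were 12 and 10.

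Odorant and vomeronasal receptor genes formed the longest list and were called mainly lower. These receptors serve smell and lie near background in brain. Of 304 measured 3 were called higher and 134 lower (45.1% called, all genes 40.9%). The median was -0.41, which became -0.23 with quantile scaling, -0.08 with normexp and -0.21 with the block. Only 6 of the 134 were also called with the block. Or8b8 read 413, 422 and 294 in WKY and 38.5, 32.1 and 88.6 in SHRSP (-2.96 ± 0.44), with 177 on slide 1 and 65.6 and 49.5 on slide 2 in SHR. The levels of this list thus moved with slide and scaling, and the part of these in the difference was not tested.

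**Figure D4:**
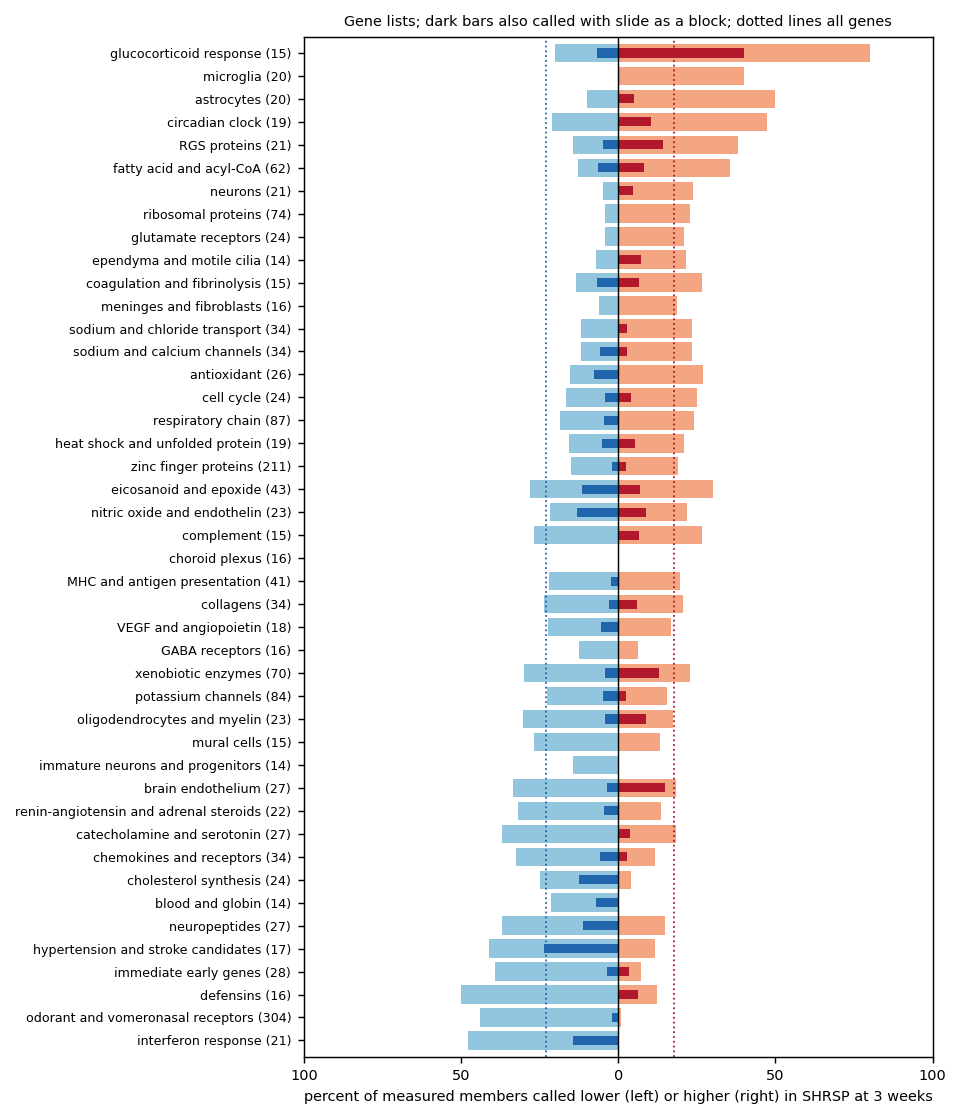
Percent of the measured members of each list of 14 genes or more that were called lower (left, blue) or higher (right, red) in SHRSP, with the number measured in brackets. Dark inner bars are members also called with slide as a block, and dotted lines mark all genes at 23.0% lower and 17.9% higher; the glucocorticoid list reaches farthest to the right and the interferon, odorant receptor and defensin lists farthest to the left.

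Some genes were seen in 1 group only. Hba-a3, an alpha globin gene, read 958, 882 and 723 in WKY and was not well above background on any SHRSP array, a difference of at least 80.6-fold (adjusted p = 4.72e-10). Defb17, which encodes an antimicrobial defensin, was not well above background on any WKY array and read 464, 436 and 464 in SHRSP, at least 40.2-fold higher (adjusted p = 2.49e-07). Both genes belong to families with close copies, so the copy that was read is uncertain. At 6 weeks it was the SHR label that lacked Hba-a3, at 9.85 to 15.6, with 1 of 3 arrays above background, and that showed Defb17, at 536 to 612. Reg3b, a secreted lectin, was at least 2.78-fold lower in SHRSP and was not well above background in either group labelled SHR or SHRSP at 6 weeks. Oxnad1 was at least 3.66-fold higher in SHRSP, and its SHR arrays read 162 on slide 1 and 45.2 and 38.3 on slide 2.

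The arrays labelled SHR divide most of the large differences into 3 kinds. Against these arrays 914 genes were called in SHRSP at 3 weeks (4.31%), 485 higher and 429 lower; this comparison shares the SHRSP arrays with the one against WKY. Of the 271 named genes at 2-fold or more, all 3 SHR arrays lay on the SHRSP side of the midpoint between the WKY and SHRSP means for 107 genes. They lay on the WKY side for 38 genes. For 110 genes replicate 1 lay on the WKY side and replicates 2 and 3 on the SHRSP side, which is the split between slides 1 and 2. The first kind held 41 higher and 66 lower genes, the second 21 and 17, and the third 9 and 101.

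Genes of the first kind separated WKY from both hypertensive strains. Besides Ptgr1, Adtrp and Acsm5 they included Alb, the serum albumin gene, which read 940, 957 and 929 in WKY and 91.0, 85.1 and 112 in SHRSP (-3.30 ± 0.12). Alb lies next to Afp and Albfm1 on chromosome 14, between 18992807 and 19127039 in the rn4 build, and all 3 genes measured in that stretch were lower, Afp with -1.35 and Albfm1 with -2.63. Chi3l1, which encodes a chitin-binding glycoprotein, was higher by 2.07 ± 0.06, and Mcm7, part of the replicative helicase, by 2.03 ± 0.06. The condensin gene Ncaph differed by -1.91 ± 0.07. Of 24 measured cell cycle genes 6 were called higher and 4 lower (41.7% called, all genes 40.9%). Mcm7 and Ncaph were the 2 also called with the block. Septin5, a septin of nerve endings, was higher by 1.51 ± 0.04 and Ptprj, a receptor phosphatase, differed by -1.33 ± 0.05, although a second Ptprj probe was called higher at 0.26. Among the 66 genes of this kind that the block also called, 62 were called in the same direction at 6 weeks under the SHRSP label, where 30.4% of all genes were called in either direction.

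Genes of the second kind set the SHRSP label apart from both other strains at 3 weeks, and most of them changed label at 6 weeks. Of 28 that the block also called, 27 were called in the same direction at 6 weeks in the arrays labelled SHR, where 41.4% of all genes were called in either direction, while under the SHRSP label 8 were called in the same direction and 3 in the opposite one. All 28 had a called difference between the 6-week and the 3-week comparison, the interaction of strain and age. The interaction was called for 30.7% of all genes and for 171 of the 271 named genes at 2-fold or more. It subtracts the 3-week difference by which these genes were picked, so its count is not independent support. That interaction was higher for 66.8% of its 6495 called genes and for 56.2% with quantile scaling. Zfp597, a zinc finger gene, read 164, 165 and 168 in WKY and 1169, 1182 and 1285 in SHRSP (2.87 ± 0.07). At 6 weeks its arrays read 177 to 219 under the SHRSP label and 1324 to 1392 under the SHR label. Zfp296 showed the same change of label, with 2.24 ± 0.08 at 3 weeks, and at 6 weeks 0.21 ± 0.08 under the SHRSP label and 2.34 under the SHR label.

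The second kind spans signalling and immune genes as well. Rgs11, which speeds the shut-off of G proteins, was higher by 2.41 ± 0.15, Zap70, a kinase of the T cell receptor, by 1.64 ± 0.06, and Trappc6a, part of a vesicle tether, by 1.42 ± 0.04. Haghl, a relative of the glyoxalase Hagh, differed by -1.72 ± 0.07 and Lpar6, which binds lysophosphatidic acid, by -1.44 ± 0.06. Each kept its call with the block, and each SHR difference from WKY at 6 weeks had the same sign, at 2.25 for Rgs11, 1.54 for Zap70, 1.15 for Trappc6a, -1.83 for Haghl and -1.16 for Lpar6. Haghl, Rgs11 and Hba-a3 lie within 508 kb of chromosome 10, where 32 genes were measured. Fam234a in the same stretch was also called, at -1.54 ± 0.43, but 1 WKY array read 530 and the others 96.0 and 107, and it was not called with the block (adjusted p = 0.32). Without that array, WKY replicate 3, the difference was -0.74.

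Genes of the third kind were picked because their SHR arrays of 3 weeks lay with their slide neighbours, so that match is set by the choice. Between WKY and SHRSP of 3 weeks, which share no slide, slide and label cannot be told apart. With the slide block 13 of the 110 were called, 1 higher and 12 lower. Slc45a4, a solute carrier gene, read 210, 196 and 187 in WKY and 36.4, 29.6 and 46.2 in SHRSP. Its SHR array of slide 1 read 185, and those of slide 2 read 30.8 and 34.5. At 6 weeks it read 28.7 to 37.0 in WKY on slide 3, 206 to 248 in SHR on slide 4 and 43.8 to 53.1 in SHRSP on slide 5. Rpl23a-ps6, a ribosomal protein pseudogene, had the same order, with a difference of -2.11. Both genes, with Th and Chga, were chosen for display after their values were seen, as were Fam234a, Dbp, Col4a1, Eif2ak2, Tmem119, Tph1, Hba-a1, Afp and the Acot genes other than Acot3 above. Of the 110 genes of this kind 11 were called in the same direction at 6 weeks under the SHRSP label, and 88 were called in the opposite direction under the SHR label, against the 30.4% and 41.4% of all genes called there in either direction.

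**Figure D5:**
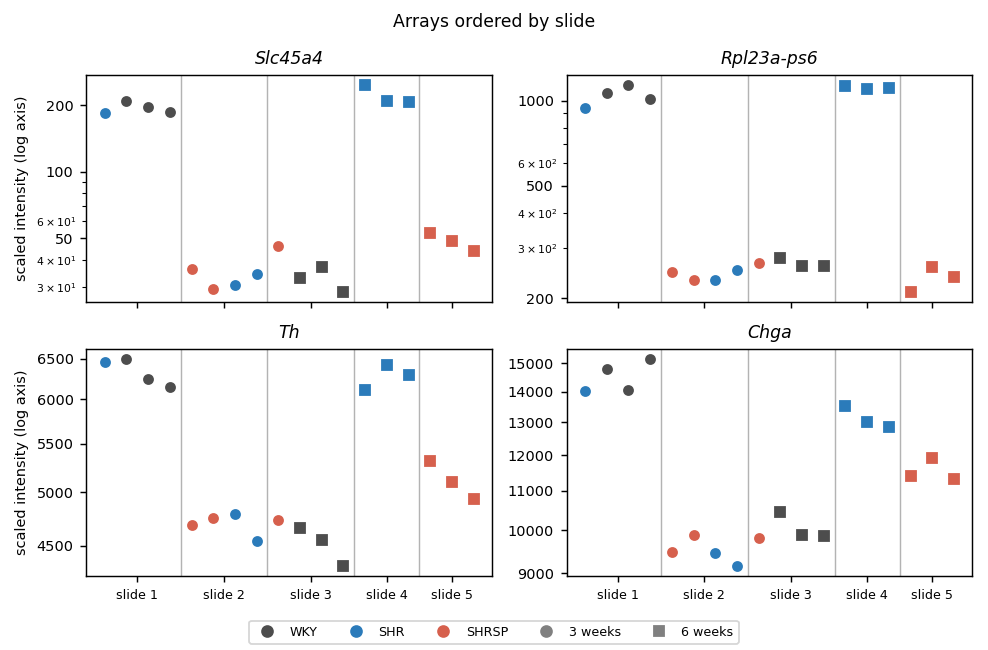
Scaled intensity on a log axis for 4 genes on all 18 arrays ordered by slide, with colour for the labelled strain, circles for 3 weeks and squares for 6 weeks. In each panel the arrays of slides 1 and 4 lie above those of slides 2, 3 and 5. On slide 1 this holds for WKY and for SHR replicate 1. Slide 4 holds only arrays labelled SHR and slide 5 only arrays labelled SHRSP, so slide and label cannot be told apart there.

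Different probes of 1 gene did not always agree. Of 2574 named genes with more than 1 probe, 311 were called in 1 direction by every probe, 1055 by some probes only and 97 in opposite directions. Mobp, which encodes a protein of compact myelin, is shown with its probes because they point both ways. Their middle bases, in lower case with no part singled out, lie on the plus strand in rn4.
Mobp probe 1, chr8:125143743-125143802: ggaccacacgatttcttctgcctgttctct
Mobp probe 2, chr8:125135770-125135829: agaagaaggaggaggactggatctgctgtg
Mobp probe 3, chr8:125136405-125136464: tctctccacagtaccaagcctgtgtaatct
Probe 1 read 16520, 15620 and 15980 in WKY and 4940, 4768 and 4905 in SHRSP, a difference of -1.72. Probe 2 differed by -0.89, and probe 3 by 0.71, with 16430 to 17140 in WKY and 26540 to 28540 in SHRSP. No group overlapped the other for any of the 3 probes. The gene thus has no single direction here, and why its probes disagree was not tested.

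Zfp14, a zinc finger gene, gave the same kind of conflict. Its probes lie on the minus strand of chromosome 1 in rn4 and are shown in the same way.
Zfp14 probe 1, chr1:85065531-85065590: acttttagactttattcctttctttctcaa
Zfp14 probe 2, chr1:85064034-85064093: gcgaaaggaagatgagcccacggacgtaat
Probe 1 read 155, 137 and 131 in WKY and 312, 297 and 305 in SHRSP, a difference of 1.12. Probe 2 read 982, 1014 and 1021 in WKY and 489, 514 and 512 in SHRSP, a difference of -0.99. Probe 2 is the brighter one and stands for the gene in the counts. At 6 weeks it differed by 0.10 ± 0.04 under the SHRSP label and by -1.04 under the SHR label.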

How the data were processed

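RNA of whole rat brain was labelled with Cy3 and hybridised to 1-colour Agilent arrays, per the labels' protocols. Each deposited intensity was extracted with Agilent Feature Extraction 10.5.1.1, per the file headers and the submitters' processing notes: a fitted spatial surface was removed, no local background was subtracted, low signals were replaced by surrogates and arrays were not scaled to each other.

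Each array's log2 intensity was set relative to its 75th percentile. Flagged spots were left out, spots of a probe averaged, probes kept where all 3 arrays of a group were well above background, and each gene read by its brightest probe. Of 30367 probes 24287 were kept, giving 21183 genes, 14456 with an established symbol. The 6 groups of 3 arrays were fitted with limma 3.58.1 in R 4.3.3 (two-sided, 12 residual degrees of freedom), and the fit was tested on simulated data. Slide came from the header barcode and entered as a fixed or random block. Per the labels replicates are biological. Replicate numbers did not pair arrays (correlations of -0.001, 0.017 and -0.066). Members and lists were chosen with earlier results of these data known. Named genes were the largest and most certain differences, those seen in 1 group, leading members of each list and genes with opposed probes, with exceptions named where they occur. Some genes these rules would name are not reported here.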

Additional observations from a re-analysis of the deposited data

Results flagged for a closer look

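For 67 of the 114 genes named, the difference of the SHRSP label from WKY was not the same at both ages, by limma's interaction of strain and age (adjusted p under 0.05, which 30.7% of all genes passed). Many genes were named for their 3-week difference, which the interaction subtracts, so these shares are not directly comparable. Values below are the 6-week difference minus the 3-week difference on the log2 scale, and 34 were positive and 33 negative. The ages lie on different slides, apart from slide 3, so age, slide and label cannot be told apart here.

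A set of 10 genes is grouped here because they were called lower at 3 weeks and not at 6 weeks under the SHRSP label, and lower at 6 weeks under the SHR label. Their interaction was 7.98 for Hba-a3, 3.93 for Agtrap, 3.54 for Ephx2, 1.92 for Haghl, 1.59 for Lpar6, 1.25 for Nppa, 1.09 for Zfp14, 0.47 for Hsd17b7, 0.41 for Arg1 and 0.37 for Egfl7. Haghl and Lpar6 were called higher under the SHRSP label at 6 weeks. A further 8 are grouped for the same pattern in the higher direction, with -6.59 for Defb17, -3.10 for Zfp597, -2.25 for Rgs11, -2.03 for Zfp296, -1.69 for Zap70, -1.40 for Trappc6a, -1.35 for Sgk1 and -1.13 for Kcne5. Zfp597 was called lower under the SHRSP label at 6 weeks. The values of Hba-a3, Defb17 and Pdk4 are fitted through groups not well above background and are not measured sizes.

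In the glucocorticoid list the interaction was -1.47 for Pdk4, -1.32 for Zbtb16, -1.0 for Mt2A, -0.94 for Map3k6, -0.86 for Ddit4, -0.76 for Klf9, -0.59 for Nfkbia, -0.56 for Arrdc2 and for Errfi1, -0.46 for Fkbp5, -0.39 for Tsc22d3 and -0.33 for Mt1. The 3 members that were low at 3 weeks had positive values, 0.58 for Cdkn1a, 0.57 for Hif3a and 0.32 for Nr3c1.

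Genes lower at 3 weeks whose SHR array on slide 1 lay above those on slide 2 had 2.99 for Slc45a4, 2.90 for Or8b8, 2.86 for Agtr1b, 1.93 for Rpl23a-ps6, 0.79 for Chga and 0.59 for Th, and their SHR label at 6 weeks lay above WKY. Fam234a, whose WKY arrays of 3 weeks disagree, had 1.81. Immune genes had 2.16 for Cxcl10, 0.67 for Ccl9 and 0.65 for Gbp5. The immediate early genes Fos and Nr4a1, already called lower at 3 weeks, had -1.74 and -1.17.

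Vessel and pressure genes had 0.79 for Ocln, 0.56 for Stim1, 0.46 for Ednra, 0.43 for Kdr, 0.30 for Agtr1a, -0.57 for Slc2a1, -0.36 for Npr2, -0.33 for Mfsd2a, -0.28 for Cyp11b1 and for Ece1, and -0.26 for Fxyd7. Enzyme genes had 1.79 for Cyp2c11, 0.74 for Acsm5, 0.39 for Acot4, 0.19 for Sqle and -0.16 for Cyp4f5. The remaining values were 1.15 for Cort, 0.47 for Adtrp, -0.27 for Chi3l1, -0.29 for Tef, -0.50 for Septin5 and -0.53 for Ptprj.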

How the results depend on the processing

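The 8662 calls between SHRSP and WKY became 1154 when slide was a fixed block and 5179 when it was random. Scaling, background correction, probe filters, scan day and the choice of arrays gave 7537 to 8951, and leaving out each replicate 7005 to 7903. The 914 calls against SHR became 573 with the fixed block, 288 with only the groups compared, 549 with only the arrays of 3 weeks (an alternative chosen after seeing the data), and 649 to 810 without single replicates. The 6447 calls at 6 weeks became 3106, and the 6495 of the interaction 1224, with the random block. Without single replicates these were 4523 to 6207 and 5303 to 6580. The cause of these changes was not tested. A fixed slide or scan day block could not be fitted for the last pair of comparisons. The authors' series table holds the same intensities as the scanner files, so it gave no separate alternative.

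With the replicate number as a block, 8293 genes were called, and no call of the 114 genes named changed. Of these genes, 28 kept their direction but lost their call with the fixed slide block, and 8 with the random one. The direction reversed with the fixed block for Th (0.055). With the mean over a gene's probes it reversed for Cdkn1a (0.19), Mobp (-0.63) and Zfp14 (0.062), whose probes disagree. Signal near background limits Ephx2, Cxcl10, Ptger4 and Pdk4.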
